A study of Mus musculus with 8 samples.

Results

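The potassium channel genes described here are the 96 entries of the count table whose symbol begins with Kcn. The table holds 55523 entries, of which 99 begin with these letters, and *Kcnq1ot1*, *Kcnab3os* and *Kcnd3os*, which are transcripts of the opposite strand, were left out. *Kcnmb4os1* and *Kcnmb4os2*, also opposite-strand transcripts, were kept because their symbols do not end in the letters os, and they are given as a class of their own. Pituitary gonadotropes, the cells that secrete luteinizing hormone and follicle-stimulating hormone, were collected by cell sorting as EGFP-expressing cells from the pituitary of Ad4BP-BAC-EGFP mice. In these mice a transgene carrying the *Nr5a1* (Ad4BP) locus drives EGFP, so the cells were chosen by the activity of that transgene. RNA was sequenced from 4 male and 4 female samples, all of the same genotype and with no treatment given in the labels, and the question addressed is which channel genes these cells express and whether their levels differ between the sexes. The labels give neither the age of the animals nor whether a sample pools several animals, and nothing states that the samples came from separate animals, so p-values measure only the spread between these samples. Male replicate 1, which the study left out, is shown apart, and the sexes were compared as male replicates 2 to 4 against female replicates 1 to 4.

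Potassium channels let potassium ions leave the cell, or enter it, and thereby set the resting potential and end each action potential. Pore subunits assemble as tetramers, or as dimers in the K2P family, around a selectivity filter, and accessory and silent subunits alter when they open and how many reach the membrane. Gonadotropes are excitable endocrine cells: gonadotropin-releasing hormone raises calcium in pulses, and calcium-activated potassium channels take part in the electrical response to it.

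Library totals ran from 18774578 to 31302588 counts in the 8 samples, and the 96 genes together took 0.131% to 0.154% of it. Values are CPM, counts divided by a library size that was adjusted with TMM factors (trimmed mean of M values), and a level, where genes are compared with each other, is CPM per kb of exon. A floor of 3 counts corresponded to 0.0921 to 0.146 CPM on this scale and covers counting error only. The gonadotrope markers *Lhb*, *Fshb*, *Cga*, *Gnrhr* and *Nr5a1* were all above 1 CPM in every sample. Their summed level was 67930 to 75717 CPM in male replicates 2 to 4, 21488 to 34863 CPM in the females and 28423 CPM in male replicate 1, in which *Nr5a1* was 16.3 CPM against at least 584 CPM elsewhere. *Cga* and *Fshb* made up most of that sum. Only *Fshb* was higher in male replicates 2 to 4 without overlap (16894 to 30905 against 1402 to 5699 CPM in the females), and *Cga*, *Lhb* and *Gnrhr* overlapped. *Nr5a1* was lower in males without overlap, at 584 to 801 CPM in male replicates 2 to 4 and 862 to 1266 CPM in the females. Markers of other pituitary cells were present too: the summed somatotrope markers (*Gh*, *Ghrhr*) were 12397 to 57867 CPM in females and 65338 to 142305 CPM in male replicates 2 to 4. *Ghrhr* by itself overlapped, at 2.95 to 25.7 CPM in females and 8.94 to 60.7 CPM in these males. The summed stem cell markers (*Sox2*, *Sox9*, *Aldh1a2*) were 302 to 533 CPM in females and 214 to 271 CPM in male replicates 2 to 4, the thyrotrope markers (*Tshb*, *Trhr*) 21.4 to 85.2 and 238 to 345 CPM, and the pericyte and stromal markers 224 to 248 and 252 to 511 CPM. In the last list only *Rgs5* was higher in these males without overlap: *Col1a1* was lower without overlap (2.95 to 4.27 against 5.37 to 13.1 CPM in the females), and *Col1a2*, *Pdgfrb*, *Dcn* and *Lum* overlapped. The gonadotrope, somatotrope, stem cell, thyrotrope and pericyte sums did not overlap between the sexes, and their part in the results on channel genes was not tested. In such sorted but mixed samples, fewer cells of a type and less RNA per cell cannot be told apart.

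The part of the coding sequence that identifies a potassium pore is short. The filter was searched in frame as 5 codons in a row, for threonine, any residue whose codon has T in the middle, glycine, any residue whose codon begins with T, and glycine. Of 21504 genes with a complete coding sequence, 187 (0.87%) held these letters, and of the 94 channel genes other than the opposite-strand transcripts 64 (68.1%) did. They were found in 12 of 14 K2P genes, of which 11 held them more than once because a K2P subunit carries a pair of pore loops, in 10 of 10 silent subunits, in 14 of 15 inward rectifiers, in 23 of 30 voltage-gated pore genes and in 5 of 8 calcium- or sodium-activated pore genes. None of the 13 accessory subunits of voltage-gated channels and none of the 4 accessory subunits of the large-conductance channel held them. No match says only that these letters are not in the coding sequence searched. The sequences of 3 genes on which the results below turn are printed from GENCODE M21 transcripts (GRCm38/mm10), 5′ to 3′ on the coding strand, with the filter letters in capitals and 9 bases on either side. The first *Kcnk9* stretch is split by an intron and spans chr15:72513028-72546012 on the minus strand, the second lies at chr15:72512710-72512742 on the minus strand, that of *Kcna4* at chr2:107296486-107296518 on the plus strand and that of *Kcnf1* at chr12:17175052-17175084 on the minus strand.
Kcnk9 loop 1: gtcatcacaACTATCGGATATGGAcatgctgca
Kcnk9 loop 2: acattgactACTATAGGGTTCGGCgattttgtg
Kcna4: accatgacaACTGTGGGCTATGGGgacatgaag
Kcnf1: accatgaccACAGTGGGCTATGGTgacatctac

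Expression of the family was concentrated in few genes. Of the 96 genes, 48 reached 1 CPM or more in all 7 samples compared, 17 did not pass the filter on low counts and reached at most 2.69 CPM, and *Kcnv1*, *Kcne1* and *Kcnk16* had 0 counts in all 8 samples. The 10 genes with the highest levels held 65.5% to 77.7% of the summed level of the family in each sample. *Kcnk1*, a K2P leak channel (TWIK-1), ranked first by far, at 171 ± 15.1 CPM per kb in males (SD, n = 3) and 149 ± 27.4 CPM per kb in females (SD, n = 4). *Kcnk3* (the acid-sensitive leak channel TASK-1) followed at 27.3 ± 4.47 CPM per kb over the 7 samples (SD), and then *Kcnk2* (the stretch-sensitive leak channel TREK-1) at 22.3 ± 6.22 and *Kcnd2* (the A-type channel Kv4.2) at 21.4 ± 7.69 CPM per kb. Over the 7 samples the last 3 levels differed by less than the largest of their SDs, but the order differed by sex: in males *Kcnd2* (27.5 ± 4.07) was above *Kcnk2* (16.6 ± 0.706), and in females *Kcnk2* (26.6 ± 4.33) was above *Kcnd2* (16.8 ± 6.43 CPM per kb). *Kcna5* (11.9 ± 5.98), *Kcnc4* (11.3 ± 2.82), *Kcnip3* (10.4 ± 5.34), *Kcnj8* (8.33 ± 4.17), *Kcna4* (6.98 ± 4.87) and *Kcnmb4* (5.58 ± 2.42 CPM per kb) came next, and each neighbouring pair among them differed by less than its SDs. With the longest transcript as length *Kcnmb4* was 11.4 CPM per kb and ranked 7 in place of 10.

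**Figure D1:**
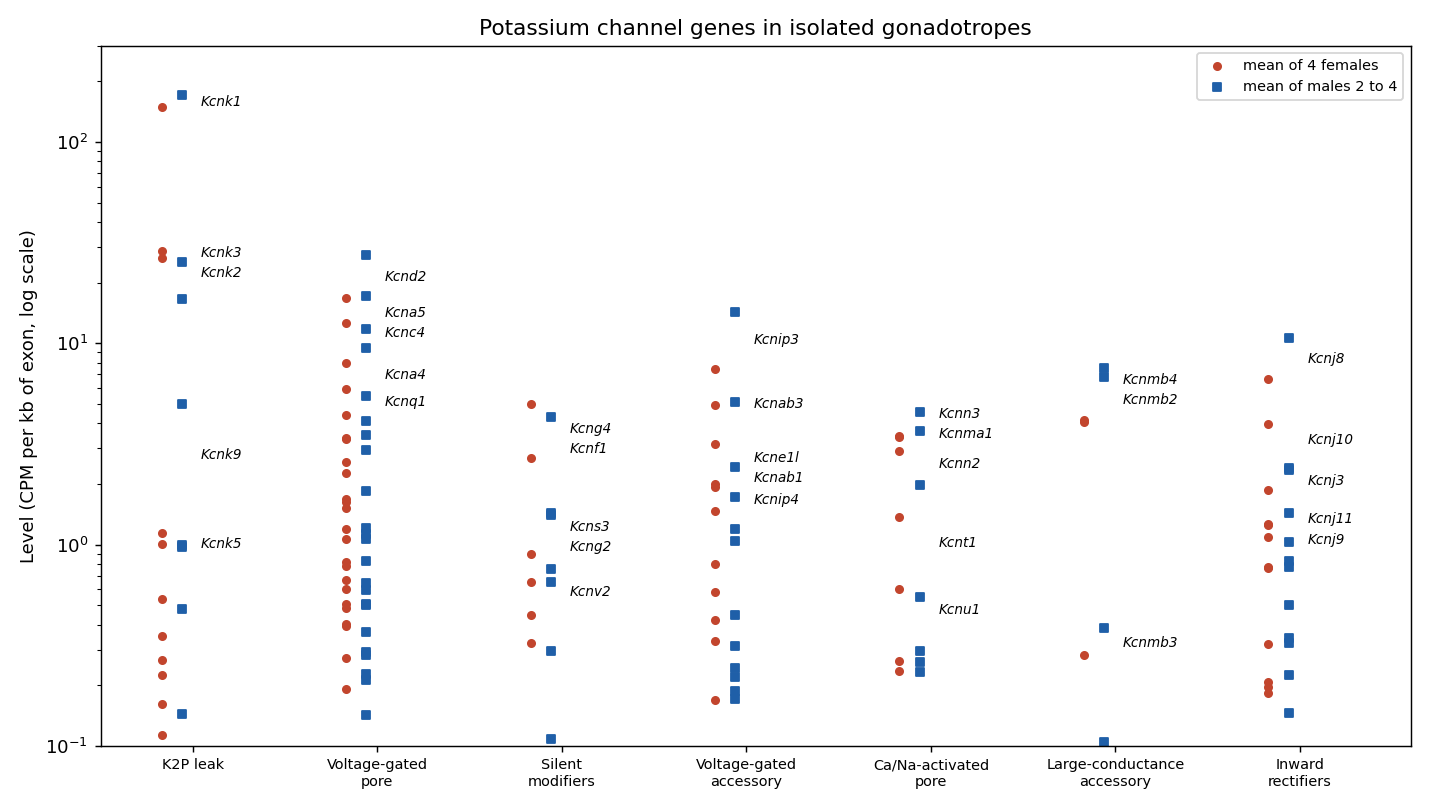
Mean level of channel genes (CPM per kb of exon, log scale) by class, with circles for the mean of the 4 females and squares for the mean of male replicates 2 to 4. Means below 0.1 are not drawn, up to 5 genes of a class are labelled in order of their mean over the 7 samples, and a label is moved up where it would cover another. *Kcnk1* (149 in females, 171 in males) stands above all other members.

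By class, the 14 K2P leak channel genes held most of the summed level, at 221 ± 16.9 CPM per kb in males and 208 ± 31.5 CPM per kb in females, which was 52.5% to 55.5% of the family in male replicates 2 to 4 and 52.5% to 63.2% in females. Their share was 47.2% in male replicate 1. The 30 voltage-gated pore genes came second, with 90.9 to 109 CPM per kb in the 3 males and 70.2 to 86.8 CPM per kb in the females, so that the sexes did not overlap (98.1 ± 9.93 against 78.4 ± 8.18). With library size alone they did, at 83.6 to 99.2 in these males and 75.8 to 91.8 CPM per kb in the females. The 4 accessory subunits of the large-conductance channel were just apart, at 12.5 to 17.8 CPM per kb in males and 5.58 to 12.2 CPM per kb in females, but male replicate 1 (10.8 CPM per kb) lay among the females, and with library size alone the sexes overlapped (11.3 to 15.8 against 6.22 to 12.8). The sexes overlapped in the other classes, except that the calcium- or sodium-activated pore genes were lower in males without overlap with library size alone (9.57 to 11.5 against 12.3 to 13.87) and with the longest transcript as length (15.8 to 17.7 against 17.8 to 19.9). In both settings male replicate 1 (13.95 and 20.04 CPM per kb) was above every female. The summed level was 27.3 ± 2.25 CPM per kb in males and 23.3 ± 9.56 in females for the accessory subunits of voltage-gated channels, and 21.1 ± 2.94 and 18.5 ± 4.97 for the inward rectifiers. It was 11.6 ± 0.823 and 12.3 ± 0.609 CPM per kb for the calcium- or sodium-activated pore genes and 8.96 ± 1.47 and 10.1 ± 6.94 for the silent subunits, whose female mean rested on female replicate 1 (20.3 CPM per kb) and was 6.74 without it, below that of the males. With library size alone the sex with the higher mean turned for the K2P genes (201 CPM per kb in males and 223 in females), the accessory subunits of voltage-gated channels (24.8 and 25.1) and the inward rectifiers (19.1 and 19.9). No test was made on these sums.

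**Figure D2:**
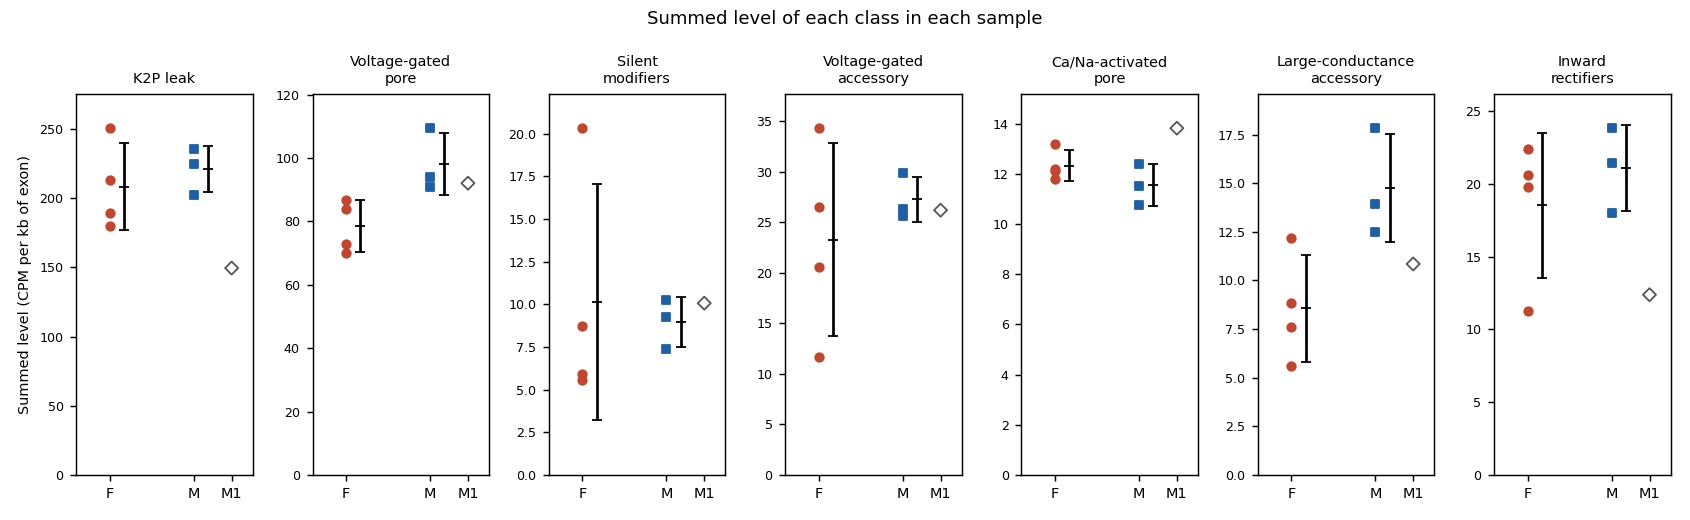
Summed level of each class (CPM per kb of exon) in each sample, with circles for females (F, n = 4), squares for male replicates 2 to 4 (M, n = 3), an open diamond for male replicate 1 (M1), and bars for the mean and SD. Male replicates 2 to 4 lie above all females for the voltage-gated pore genes (at least 90.9 against at most 86.8) and, without male replicate 1, for the accessory subunits of the large-conductance channel; both separations were lost with library size alone.

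Few channel genes differed between the sexes beyond the spread of the samples. Of the 79 genes that passed the filter, 2 had an adjusted p below 0.05, *Kcnk9*, which was higher in males, and 1 that was higher in females (edgeR quasi-likelihood test, Benjamini-Hochberg adjustment over 20152 genes), which is 2.53% of them, against 2.34% of all genes tested (0.983% higher in males and 1.35% higher in females). A share this near the background is not a result about the family. DESeq2 called 2 members higher in males and 10 higher in females, where it called 11.6% of all genes. In edgeR, 1 member was called in each direction with upper-quartile factors (2.25% of all genes), with robust dispersions (2.44%) and with at least 10 counts in every sample (3.64%), 1 higher in females with no filter beyond 1 count (0.562%), and *Kcnk9* higher in males and 3 members, *Kcnk2* and *Kcnh6* among them, higher in females with library size alone (4%, with 133 genes higher in males and 673 in females, against 198 and 273). No member was called in edgeR with all 8 samples (0.342%) or with a replicate block (0%), where 14 of 74 members (18.9%, against 10.2% of all genes) and 16 of 79 (20.3%, against 14.7%) had an unadjusted p below 0.05. At an unadjusted p below 0.05, 7 genes (against 9.31% of all genes) lay higher in males and 14 (against 10.6%) in females, together 26.6% of the 79 against 19.9%. The sexes did not overlap for 16 genes, 6 higher in males and 10 higher in females, which is 20.3% against 22.3% of all genes. With a log2 fold change of at least 1 in either direction as well, 11 genes (13.9%) did not overlap, against 8.47% of all genes. The median log2 fold change, males over females, over the 79 genes was 0.05, with 41 above and 38 below 0, and -0.03 over all genes tested.

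**Figure D3:**
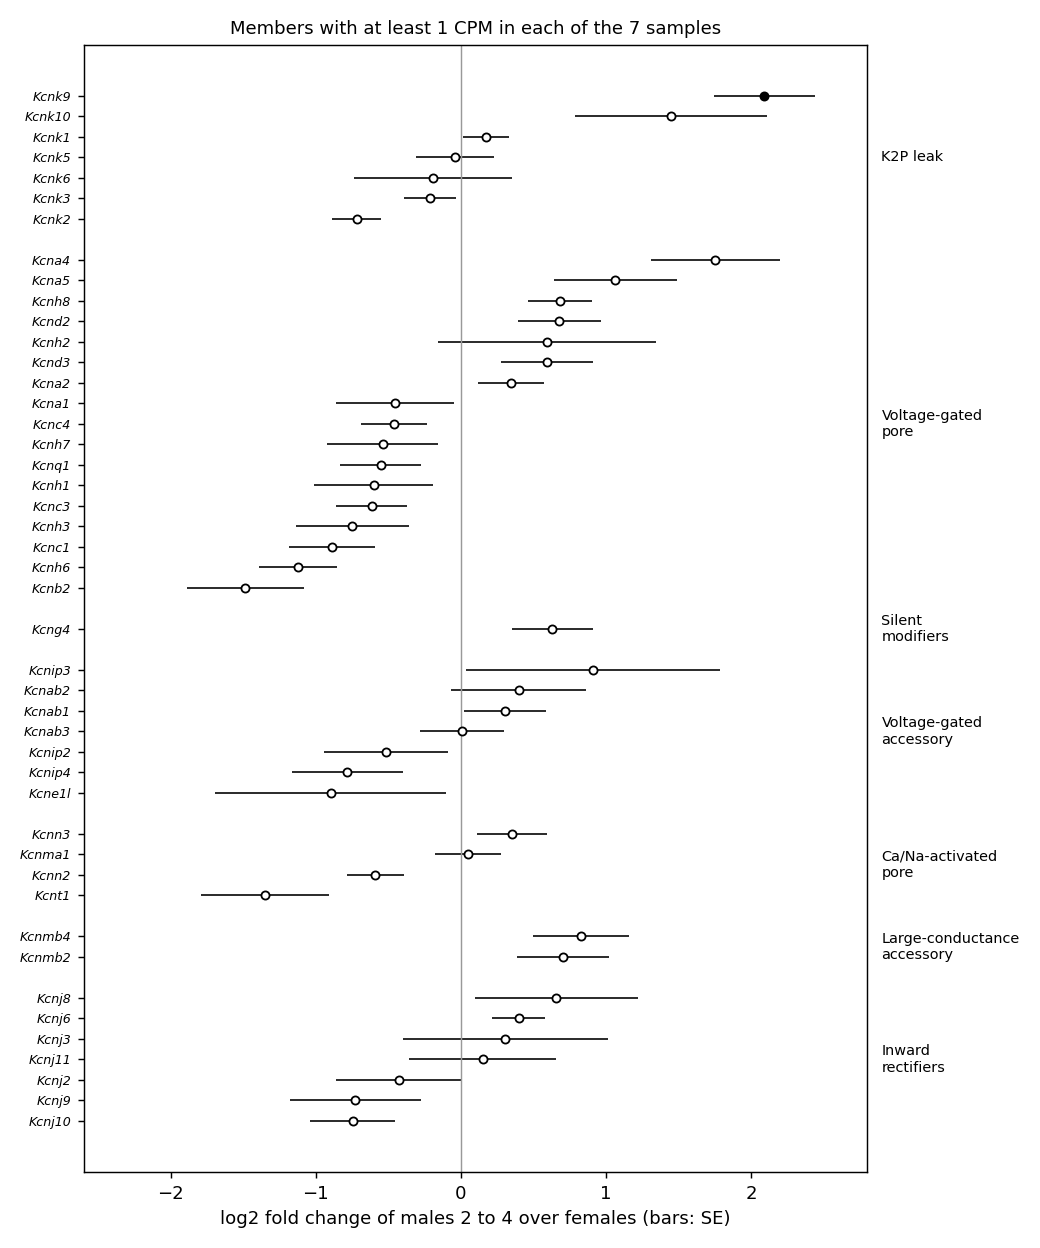
Log2 fold change of male replicates 2 to 4 over females, with its SE as a bar, for members at 1 CPM or more in all 7 samples, by class. Filled points have an adjusted p below 0.05 in edgeR and open points do not. *Kcnk9* (2.09) is the filled point.

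Among the K2P leak channels, which pass potassium at rest and hold the membrane potential negative, *Kcnk9* differed between the sexes. *Kcnk9* (chr15:72501089-72546340, minus strand) codes for TASK-3, a relative of TASK-1 with which it can form mixed channels. It was 16.5, 10.1, 8.47 and 21.1 CPM in female replicates 1 to 4 and 59.3, 76.1 and 48.7 CPM in male replicates 2 to 4, with 41.3 CPM in male replicate 1. All 4 males were above all females. The log2 fold change was 2.09 (SE 0.35, adjusted p = 0.0399 in edgeR, exact permutation p = 0.0286, two-sided, the smallest that 35 splits can give). The level was 4.99 ± 1.12 CPM per kb in males and 1.14 ± 0.474 in females, well below that of *Kcnk1* in either sex. The direction was the same with any single sample left out (log2 fold change 1.92 to 2.38), but the call was not: the adjusted p in edgeR was 0.0748, 0.0872 and 0.0618 without female replicates 1, 2 and 3, and 0.111, 0.129 and 0.0745 without male replicates 2, 3 and 4, and only without female replicate 4 did it pass, at 0.0433.

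The more abundant leak channels did not pass the threshold in edgeR as reported, but *Kcnk2* passed with DESeq2 and, in edgeR, with library size alone. *Kcnk2* (chr1:189207930-189402273, minus strand) was 101, 134, 148 and 144 CPM in the females and 82.8, 78.0 and 84.7 CPM in the males, with 67.6 CPM in male replicate 1. Every male was below every female, and the log2 fold change was -0.72 (SE 0.17, adjusted p = 0.0748 in edgeR, exact permutation p = 0.0571). Of its exon bases, 12.2% overlap *A430027H14Rik* on the other strand, and without strand in the library reads from these bases cannot be assigned to either gene. *Kcnk1* (chr8:125995170-126030685, plus strand) was 283, 305, 422 and 320 CPM in the females, 412, 392 and 346 CPM in the males and 221 CPM in male replicate 1, with a log2 fold change of 0.17 (SE 0.16, adjusted p = 0.625 in edgeR) that was -0.034 with library size alone. *Kcnk3* (chr5:30588170-30625271, plus strand) was 112, 88.4, 116 and 141 CPM in the females and 111, 101 and 91.6 CPM in the males (log2 fold change -0.21, SE 0.18, adjusted p = 0.586 in edgeR). The sexes overlapped for both.

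The remaining K2P genes were low. *Kcnk5* (TASK-2) stood between 2.70 and 4.83 CPM in the 7 samples, and *Kcnk6* (TWIK-2) between 1.22 and 3.72 CPM. *Kcnk10* (TREK-2), a mechanosensitive relative of *Kcnk2*, reached 16.9 CPM in male replicate 4 and at most 5.12 CPM elsewhere, with a lowest value of 1.28 CPM. The somatotrope markers *Gh* (142244 CPM) and *Ghrhr* (60.7 CPM) were also highest in male replicate 4, as were the corticotrope marker *Pomc* (28580 CPM) and the gonadotrope marker *Cga* (50707 CPM), and their part in this value was not tested. The other 7 K2P genes were not tested: *Kcnk18* reached at most 1.71 CPM, *Kcnk7* 1.12 CPM and *Kcnk13* 1.08 CPM in the 7 samples, and *Kcnk12*, *Kcnk15* and *Kcnk4* stayed below 1 CPM in all.

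Voltage-gated pore subunits open on depolarization and repolarize the cell. Of 28 tested, 3 lay higher in all males than in all females and 5 lower (10.7% and 17.9%, against 11.5% and 10.8% of all genes), and 9 log2 fold changes were above and 19 below 0, with a median of -0.55. The median and the summed level thus differed in sign. Of the 5 genes with the highest levels, *Kcnd2*, *Kcna5* and *Kcna4* had a log2 fold change above 0, and *Kcnc4* and *Kcnq1* below 0.

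*Kcnq* genes code for Kv7 channels, which open below the spike threshold. *Kcnq3*, a neuronal member, was at most 1.54 CPM in the 7 samples and at 0 counts in the lowest. *Kcnq5* had 0 counts in all 4 males, and 2.69, 2.29, 0.921 and 0 CPM in female replicates 1 to 4. Against a floor of 3 counts per library it was at least 12.1-fold lower in males, but female replicate 4 was at 0 as well, and it was not called (adjusted p = 0.159 in edgeR). *Kcnq5* would not have passed the filter on low counts without the females, so this bound only describes these samples. *Kcnq1*, the cardiac and epithelial member of the group, was 29.7, 29.5, 20.8 and 16.6 CPM in the females and 21.9, 13.4 and 15.2 CPM in the males, with overlap.

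A pair of Kv1 genes that code for rapidly activating channels lay on the male side. *Kcna4* (Kv1.4, an inactivating A-type channel, chr2:107290639-107298502, plus strand) was 6.97, 21.02, 11.8 and 25.8 CPM in the females, 66.2, 61.2 and 43.0 CPM in the males and 46.9 CPM in male replicate 1. All 4 males were above all females, and the log2 fold change was 1.75 (SE 0.45, adjusted p = 0.0881 in edgeR, exact permutation p = 0.0286). *Kcna5* (Kv1.5, a delayed rectifier, chr6:126532551-126535412, minus strand) was 9.92, 31.0, 33.4 and 17.0 CPM in the females and 58.6, 37.8 and 50.2 CPM in the males, with a log2 fold change of 1.06 (SE 0.42, adjusted p = 0.224 in edgeR, exact permutation p = 0.0857). The 3 males were above all females, and male replicate 1, at 21.04 CPM, was among the females. *Kcna2* (7.87 to 14.4 CPM) and *Kcna1* (1.66 to 5.03 CPM in the 7 samples) overlapped between the sexes.

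The Kv4 genes code for the fast A-type channels that delay spikes. *Kcnd2* (chr6:21215503-21729805, plus strand) was 73.8, 72.6, 63.7 and 136 CPM in the females, 166, 129 and 131 CPM in the males and 84.5 CPM in male replicate 1. The groups overlapped through female replicate 4, and the log2 fold change was 0.68 (SE 0.29, adjusted p = 0.248 in edgeR). *Kcnd1* (chrX:7822289-7838280, plus strand) was 4.41, 5.32, 4.97 and 1.86 CPM in the females and 0.473, 1.13 and 1.77 CPM in the males. It did not overlap between the sexes (log2 fold change -1.90, SE 0.56, adjusted p = 0.123 in edgeR), with female replicate 4 just above male replicate 4, and male replicate 1 was in the female range at 3.14 CPM. *Kcnd3* was 7.87 to 18.4 CPM in the females and 15.5 to 20.1 CPM in the males.

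The genes of the Kv2 and Kv3 groups described here had a log2 fold change below 0. *Kcnb2* (Kv2.2, a delayed rectifier, chr1:15287254-15723750, plus strand) was 21.5, 41.5, 12.4 and 22.9 CPM in the females and 9.46, 9.48 and 8.08 CPM in the males, without overlap (log2 fold change -1.49, SE 0.40, adjusted p = 0.102 in edgeR, exact permutation p = 0.0571). Male replicate 1 was at 25.4 CPM, in the female range. *Kcnc4* (Kv3.4, a fast-inactivating channel, chr3:107438303-107459552, minus strand) was 33.5, 58.2, 52.7 and 41.3 CPM in the females and 36.1, 37.4 and 30.2 CPM in the males (log2 fold change -0.46, SE 0.22, adjusted p = 0.316 in edgeR). The sexes overlapped through female replicate 1. *Kcnc1* (Kv3.1), which serves rapid firing, was 12.6 to 16.4 CPM in the females and 4.85 to 11.1 CPM in the males without overlap (log2 fold change -0.89, SE 0.30, adjusted p = 0.160 in edgeR), with male replicate 1 in the female range at 15.6 CPM.

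The *Kcnh* genes code for the ether-a-go-go group, whose erg members carry a slow current at rest. *Kcnh6* (erg2, chr11:106008124-106034549, plus strand) was 7.01, 7.07, 12.5 and 9.86 CPM in the females and 4.93, 4.34 and 3.54 CPM in the males. The males were below all females, and so was male replicate 1 at 6.59 CPM, with a log2 fold change of -1.12 (SE 0.27, adjusted p = 0.0776 in edgeR, exact permutation p = 0.0286). *Kcnh2* (erg1, chr5:24319589-24351604, minus strand), the best known erg gene, was 17.1, 3.80, 2.03 and 20.8 CPM in the females, 15.3, 18.6 and 16.8 CPM in the males and 0.873 CPM in male replicate 1. Female replicates 2 and 3 and male replicate 1 were below 4 CPM and the other 5 samples above 15 CPM. *Kcnh8* (an elk channel) was 13.2 to 17.5 CPM in the females and 18.5 to 30.7 CPM in the males, without overlap (log2 fold change 0.68, SE 0.22, adjusted p = 0.153 in edgeR).

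**Figure D4:**
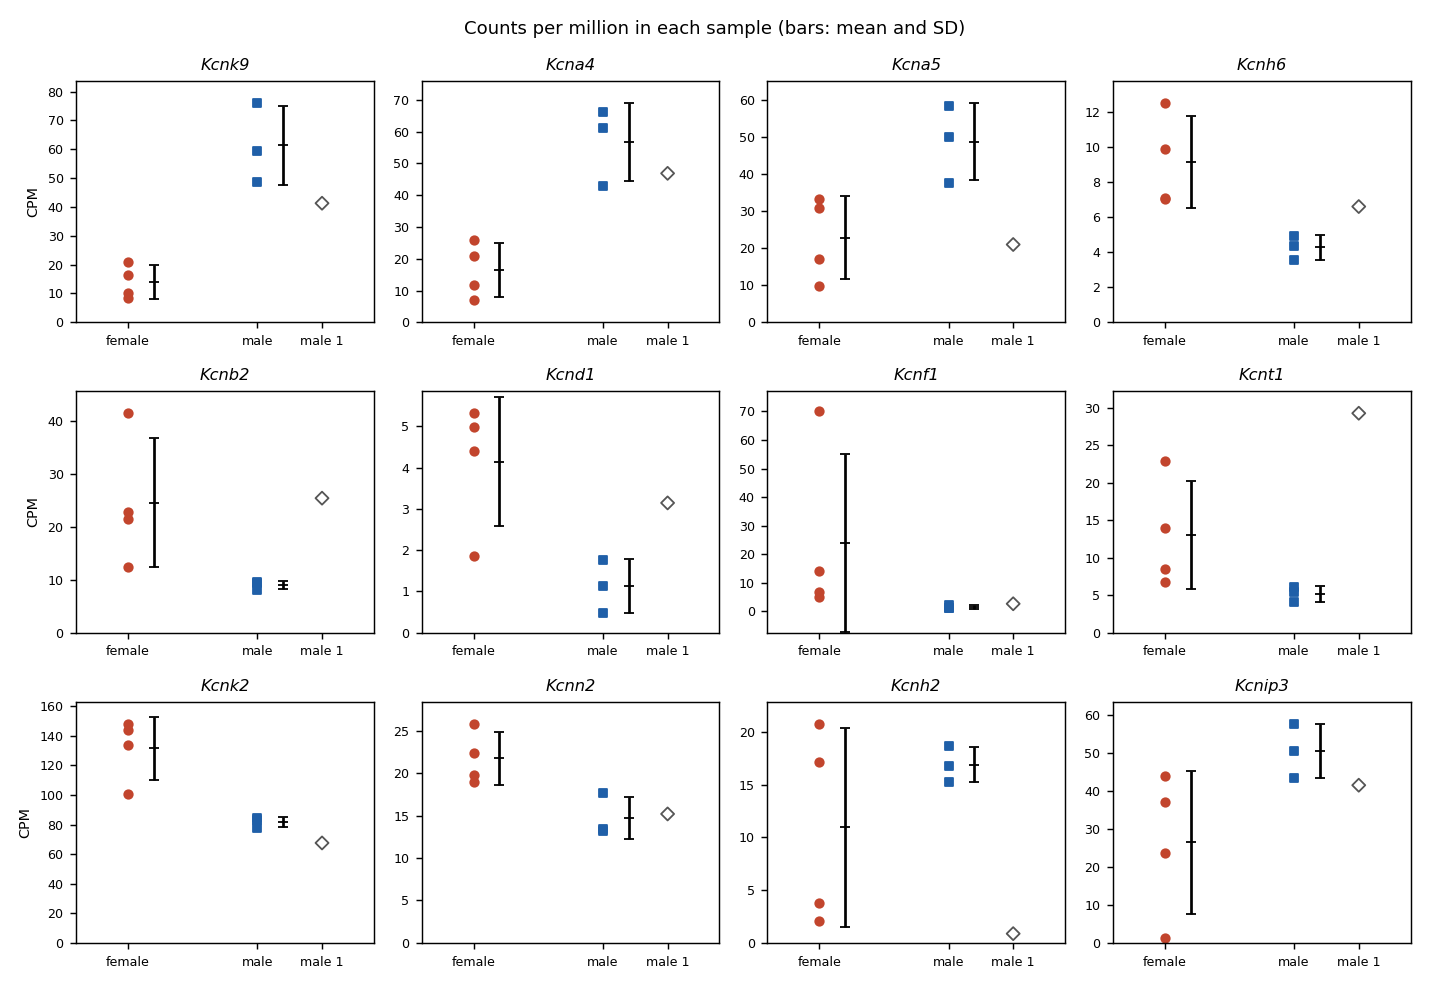
CPM in each sample for 12 members the text describes, with circles for females (n = 4), squares for male replicates 2 to 4 (n = 3), an open diamond for male replicate 1, and bars for the mean and SD. For *Kcnf1* the SD of the females exceeds their mean, so the bar passes below 0. *Kcnk9* and *Kcna4* are higher in all 4 males, while male replicate 1 lies near or among the females for *Kcnb2* and *Kcnd1* and below all other samples for *Kcnh2*.

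Silent subunits form no channel alone and modify Kv2 channels. Of 6 tested, 5 had a log2 fold change above 0 and 1, *Kcnf1*, below 0, with a median of 0.69 against -0.03 over all genes, and none was called in edgeR. *Kcnf1* (Kv5.1, chr12:17172100-17176888, minus strand) was 70.1, 4.83, 14.0 and 6.74 CPM in the females, 2.29, 0.982 and 0.999 CPM in the males and 2.62 CPM in male replicate 1. All males were below all females, and female replicate 1 enlarged the difference: the log2 fold change was -4.09 (SE 1.12, adjusted p = 0.104 in edgeR, exact permutation p = 0.0571) and -2.59 without that sample (adjusted p = 0.0903 in edgeR). *Kcng4* (Kv6.4, chr8:119623854-119635680, minus strand) was 10.9, 11.4, 12.3 and 6.48 CPM in the females and 20.8, 16.3 and 11.9 CPM in the males with overlap (log2 fold change 0.63, SE 0.28, adjusted p = 0.267 in edgeR). *Kcns3* (0.732 to 5.17 CPM) and *Kcng2* (0.770 to 4.72 CPM in the 7 samples), other modifiers of Kv2, overlapped between the sexes.

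Accessory subunits of voltage-gated channels gave no call among 11 tested, with none at an unadjusted p below 0.05 in edgeR and none called by DESeq2 (against 2.34%, 19.9% and 11.6% of all genes), and each overlapped between the sexes, where 22.3% of all genes did not. *Kcnip3* (a calcium-binding partner of Kv4, also the repressor DREAM, chr2:127456498-127522094, minus strand) was 37.0, 1.27, 23.7 and 43.7 CPM in the females, 43.3, 50.5 and 57.6 CPM in the males and 41.4 CPM in male replicate 1. The value of female replicate 2 rests on 26 counts and was far below all others, and the log2 fold change was 0.91 (SE 0.87, adjusted p = 0.643 in edgeR). *Kcnab3* and *Kcnab1*, the beta subunits of Kv1 channels, were 12.1 to 15.3 and 14.0 to 19.4 CPM in the females and 8.26 to 19.8 and 15.4 to 30.9 CPM in the males. Their log2 fold changes of 0.01 (SE 0.29) and 0.30 (SE 0.28) did not pass (adjusted p = 0.991 and 0.625 in edgeR), and each was below 0 in some of the alternatives. *Kcne1l*, a small single-pass subunit that acts on Kv7 channels, was 11.1, 1.66, 1.63 and 5.06 CPM in the females and 2.68, 4.23 and 1.09 CPM in the males. Among the other Kv4 partners, *Kcnip4* was 3.87 to 12.1 CPM in the 7 samples and *Kcnip2* 2.53 to 7.36 CPM.

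Channels opened by calcium end bursts and shape the afterhyperpolarization. *Kcnma1*, the pore of the large-conductance (BK) channel (chr14:23289431-24014491, minus strand), was 63.4, 63.8, 40.6 and 65.8 CPM in the females and 63.4, 73.4 and 49.1 CPM in the males, with a log2 fold change of 0.05 (SE 0.23, adjusted p = 0.94 in edgeR) that fell below 0 in some of the alternatives. *Kcnn3* (SK3, chr3:89520164-89675132, plus strand), a small-conductance channel, was 22.6, 39.2, 43.7 and 39.3 CPM in the females and 46.7, 52.9 and 42.5 CPM in the males (log2 fold change 0.36, SE 0.24, adjusted p = 0.484 in edgeR). *Kcnn2* (SK2, chr18:45268860-45686024, plus strand) was 19.8, 18.9, 22.3 and 25.9 CPM in the females and 13.2, 13.5 and 17.6 CPM in the males. *Kcnn2* did not overlap (log2 fold change -0.59, SE 0.19, adjusted p = 0.158 in edgeR, exact permutation p = 0.0286), whereas the other pair did.

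*Kcnt1*, the sodium-activated channel Slack (chr2:25863734-25918273, plus strand), was 22.9, 6.78, 14.0 and 8.52 CPM in the females and 5.48, 6.12 and 4.04 CPM in the males. The 3 males were below all females (log2 fold change -1.35, SE 0.44, adjusted p = 0.154 in edgeR), and male replicate 1, at 29.3 CPM, was above every other sample. *Kcnu1*, the sperm channel, stood between 0.868 and 3.90 CPM.

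The 4 accessory subunits of the large-conductance channel, which set its calcium sensitivity and inactivation, all had a log2 fold change above 0, and none was called in edgeR or DESeq2 (against 2.34% and 11.6% of all genes), with *Kcnmb4* at an unadjusted p below 0.05 (against 19.9%). *Kcnmb4* (chr10:116417861-116473878, minus strand) was 10.1, 11.3, 11.6 and 22.1 CPM in the females, 22.4, 20.3 and 32.1 CPM in the males and 27.2 CPM in male replicate 1 (log2 fold change 0.83, SE 0.33, adjusted p = 0.226 in edgeR). *Kcnmb2* (chr3:31902507-32200180, plus strand) was 6.97, 12.9, 14.8 and 16.2 CPM in the females and 15.9, 22.9 and 24.7 CPM in the males, with 6.94 CPM in male replicate 1 (log2 fold change 0.70, SE 0.32, adjusted p = 0.274 in edgeR). In both, female replicate 4 made the groups overlap. *Kcnmb3* and *Kcnmb1* stayed at or below 1.26 CPM. The exons of *Kcnmb4* overlap those of *Kcnmb4os1* and *Kcnmb4os2* over 31.5% of their length, so reads from that part cannot be assigned to any of these genes. *Kcnmb4os2* itself was 1.41, 1.27, 0 and 5.40 CPM in the females and 2.17, 5.81 and 5.68 CPM in the males (log2 fold change 1.14, SE 1.19, adjusted p = 0.675 in edgeR).

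Inward rectifiers pass current mainly near the resting potential, and *Kcnj8* and *Kcnj11* make the pores of the ATP-sensitive channels. *Kcnj8* (Kir6.1, chr6:142564837-142571614, minus strand) was 18.9, 19.95, 23.8 and 4.67 CPM in the females, 13.4, 35.1 and 32.8 CPM in the males and 4.23 CPM in male replicate 1, without a call (log2 fold change 0.66, SE 0.56, adjusted p = 0.596 in edgeR). The samples scattered within each sex by more than the sexes differed. *Rgs5*, a pericyte marker, was 85.4 to 123 CPM in the females, 147 to 399 CPM in male replicates 2 to 4 but 61.8 CPM in male replicate 1, whereas *Pdgfrb*, another pericyte marker, was 10.9 to 19.4 CPM in the females and 6.08 to 12.1 CPM in male replicates 2 to 4. The part of these cells in the *Kcnj8* values was not tested. *Abcc9*, the regulatory subunit that pairs with *Kcnj8*, was 5.71 to 9.54 CPM in the females and 6.54 to 14.0 CPM in the males. *Kcnj11* (Kir6.2) was 3.12, 9.12, 4.08 and 2.20 CPM in the females and 4.96, 4.00 and 6.81 CPM in the males, and *Abcc8*, its usual partner, 0.982 to 5.22 CPM in the 7 samples.

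*Kcnj10* (Kir4.1, chr1:172341210-172374085, plus strand), known for potassium buffering in glia, was 27.4, 16.2, 22.3 and 19.7 CPM in the females and 17.8, 13.1 and 8.26 CPM in the males (log2 fold change -0.75, SE 0.30, adjusted p = 0.224 in edgeR). The groups overlapped through female replicate 2 and male replicate 2, and the stem cell markers *Sox2* and *Sox9* were also higher in the females, while *Aldh1a2* overlapped (59.2 to 151 CPM against 76.4 to 98.5 CPM in the males). Their part was not tested. Among the channels opened by G proteins, *Kcnj3* (GIRK1) ranged from 3.37 to 19.2 CPM in the females and from 3.96 to 16.6 CPM in the males, and 31.1% of its exon bases overlap *Gm26794* on the other strand. *Kcnj6* (GIRK2) was 5.12 to 6.57 CPM in the females and 7.13 to 9.02 CPM in the males without overlap (log2 fold change 0.40, SE 0.18, adjusted p = 0.286 in edgeR), while male replicate 1, at 4.63 CPM, was below every female.

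The largest fold changes of this class came from genes near the floor. *Kcnj5* (GIRK4, chr9:32314707-32344350, minus strand) was 0, 0, 0.552 and 0.519 CPM in the females, 4.53, 1.28 and 1.23 CPM in the males and 0.917 CPM in male replicate 1 (log2 fold change 3.04, SE 1.27, adjusted p = 0.244 in edgeR, exact permutation p = 0.0286). *Kcnj4* (Kir2.3, chr15:79483714-79505241, minus strand) was 1.07, 0.390, 3.10 and 2.08 CPM in the females and 0, 0 and 0.272 CPM in the males, the last from 6 counts (log2 fold change -4.20, SE 1.40, adjusted p = 0.162 in edgeR). Neither overlapped between the sexes, although *Kcnj4* in male replicate 1 (0.480 CPM) was within the female range. *Kcnj14* (Kir2.4) was 1.03, 0, 0.583 and 0.519 CPM in the females, 0.262 CPM in male replicate 1 and 0 in the other males, so that it was at least 4.34-fold lower in these 3 males against a floor of 3 counts per library (adjusted p = 0.1703 in edgeR). *Kcnj5* would not have passed the filter on low counts without the males, nor *Kcnj4* and *Kcnj14* without the females. The fold changes, p-values and separation of these genes are therefore descriptions only. The sizes of these changes depend on the few counts behind them.

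Male replicate 1 lay with the other males for some genes and apart from them for others. It lay outside the range of the other 7 samples by at least 2-fold for 5 genes: above for *Kcnn4*, an intermediate-conductance calcium-activated channel (4.76 CPM against at most 1.84), and *Kcnj16* (0.742 against at most 0.276 CPM), and below for *Kcnip4* (1.75 against at least 3.87 CPM), *Kcnh2* (0.873 against at least 2.03 CPM) and *Kcnj13* (0 against at least 0.113 CPM, a value at the floor). Its summed K2P level, 149 CPM per kb, was below that of all other samples, and its *Kcnk1* was 221 CPM against at least 283 CPM elsewhere.

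**Figure D5:**
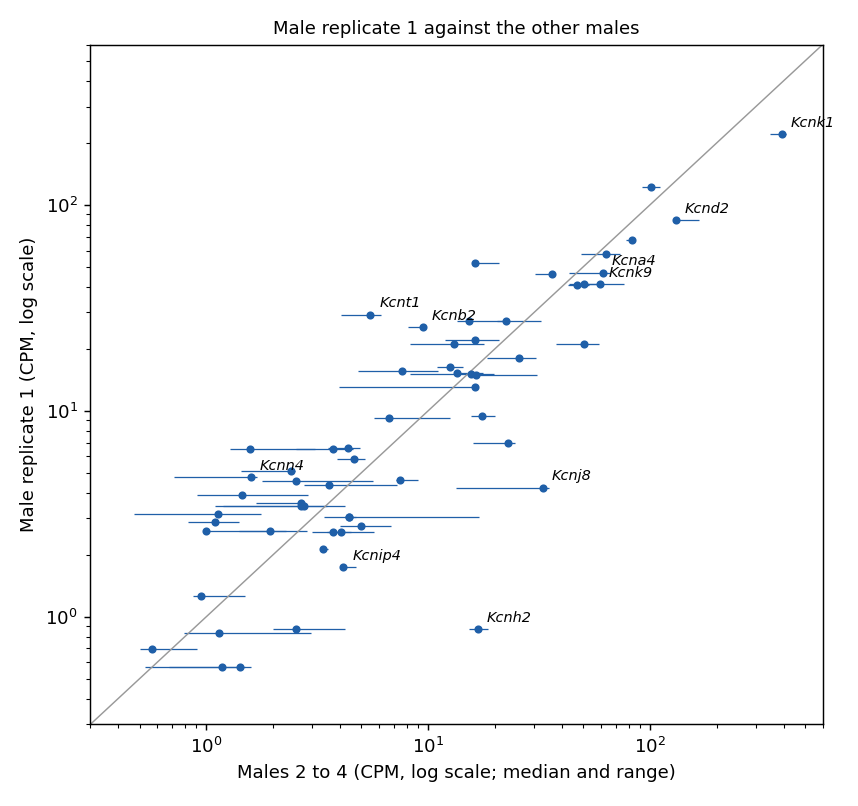
CPM of channel genes in male replicate 1 (vertical axis) against the median of male replicates 2 to 4 (horizontal axis, with their range as a bar), both on log scales. Members with at least 0.5 CPM in male replicate 1 and a count in each of the other 7 samples are drawn, and the line marks equal values. *Kcnt1* (29.3 CPM) and *Kcnb2* (25.4 CPM) lie above the line and *Kcnh2* (0.873 CPM) far below it.

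Of the listed genes that work with these channels, 27 were tested: the partner subunits, related cation channels, the sodium-potassium pump that builds the gradient, and the potassium-chloride transporters. None was higher in males and 1 was higher in females at an adjusted p below 0.05 in edgeR (3.7%, against 2.34% of all genes). At an unadjusted p below 0.05 there were 8 (29.6%, against 19.9% of all genes), of which 2 were higher in males, and DESeq2 called 2 higher in males and 3 in females (18.5% together, against 11.6% of all genes). The beta subunits of the pump differed in direction: *Atp1b1* was 429 to 700 CPM in the females and 344 to 364 CPM in the males (log2 fold change -0.69, adjusted p = 0.0852 in edgeR), and *Atp1b3* was 81.6 to 115 and 142 to 196 CPM (log2 fold change 0.76, adjusted p = 0.0695 in edgeR), with 93.6 CPM in male replicate 1. *Atp1b2* overlapped, at 78.9 to 88.5 CPM in the females and 39.8 to 181 CPM in the males (log2 fold change 0.46, adjusted p = 0.643 in edgeR). *Lrrc52*, a partner of BK-type channels, was 0.537 to 1.38 CPM in the females and 2.56 to 3.47 CPM in the males (log2 fold change 1.58, adjusted p = 0.0776 in edgeR), with 0.786 CPM in male replicate 1. For both *Atp1b3* and *Lrrc52* that sample was in the female range. The Kv4 partners *Dpp6* (log2 fold change -0.52) and *Dpp10* (0.07) and the Kv2 partner *Amigo1* (-0.18) overlapped between the sexes.

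Promoters of the channel genes were searched for the letters bound by the receptors that act in gonadotropes, on both strands of the 300 bases from 250 before to 50 after each gene start (RefSeq, GRCm38.p6). Of the 96 genes, 70 had an entry, with 95 promoters in all. The NR5A1 letters CAAGGTCA were in 1.56% of all 32851 promoters (1.76% of 27025 genes) and in 1 of the 70 genes, *Kcnf1*, 76 to 69 bases before the start on the strand of the gene. The androgen receptor letters, GNACA and TGTNC with any 3 bases between them, were in 0.475% of all promoters (0.537% of genes) and in 1 of the 70 genes, *Kcna5*, 59 to 47 bases before the start, and this pattern reads the same on both strands. The estrogen receptor letters, GGTCA and TGACC with any 3 bases between them, were in 0.07% of all promoters (0.074% of genes) and in none of the 70 genes. A match is a description of the sequence and not a binding site. The promoters of *Kcna5* and *Kcnf1* are shown because only these genes held a match. *Kcna5* was higher in male replicates 2 to 4 than in all females, but male replicate 1 (21.04 CPM) was among the females. *Kcnf1* was lower in all males. Neither gene was called in edgeR, and DESeq2 called *Kcnf1*. Whether the letters bear on these levels was not tested. Both promoters are printed 5′ to 3′ on the strand of the gene, with the matched letters in capitals: that of *Kcna5* is chr6:126535506-126535805 and that of *Kcnf1* is chr12:17176839-17177138, both on the minus strand.
Kcna5 promoter: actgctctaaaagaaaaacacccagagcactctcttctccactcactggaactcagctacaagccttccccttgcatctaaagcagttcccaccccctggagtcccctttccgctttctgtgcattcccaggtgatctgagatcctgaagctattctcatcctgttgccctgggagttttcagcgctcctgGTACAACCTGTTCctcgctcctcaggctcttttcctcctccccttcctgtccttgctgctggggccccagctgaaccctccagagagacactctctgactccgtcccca
Kcnf1 promoter: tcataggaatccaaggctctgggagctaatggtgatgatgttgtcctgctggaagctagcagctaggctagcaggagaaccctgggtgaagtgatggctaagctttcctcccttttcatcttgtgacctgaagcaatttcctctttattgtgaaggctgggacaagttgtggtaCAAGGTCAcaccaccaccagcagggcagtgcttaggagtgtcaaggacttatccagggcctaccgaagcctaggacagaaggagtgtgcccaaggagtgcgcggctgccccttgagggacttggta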

How the data were processed

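RNA of EGFP-positive sorted cells was sequenced from 4 male and 4 female samples, with a library kit that does not mark strand. According to the study's methods and the submitters' processing notes, reads were trimmed with cutadapt, mapped to mm10 (GRCm38) with STAR and counted with featureCounts at default settings. The authors deposited these counts per gene without normalization. The annotation is not given in the sources used here, and a share of the entries carry names of assembled transcripts. *Kcnk4* and *Kcnab2* share an assembled locus with another symbol, and 9 members have over 10% of their exon bases under exons of another gene.

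The members and the gene lists were chosen with earlier results of these data known. Male replicates 2 to 4 were compared with the 4 females with edgeR (version 4.0.16) in R 4.3.3, by its quasi-likelihood test on the whole table, with filterByExpr and TMM factors. P-values were adjusted by Benjamini-Hochberg over 20152 genes, with a threshold of 0.05. The SE of a log2 fold change was taken from its F statistic, as the absolute change over the root of F. A two-sided exact permutation test compared mean log2(CPM + 1) over the 35 splits of 3 against 4. The test was tried on simulated data. CPM were computed with TMM factors over all 8 samples and divided by union exon length from GENCODE M21 for levels, in Python 3.11.15 with pandas 2.3.3. All 96 members matched the annotation. Depth limits a gene to 3 counts, 0.0921 to 0.146 CPM with TMM factors.

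Named genes are members past the threshold, members whose sexes do not overlap with an absolute log2 fold change of at least 1, the 4 members of each class with the highest level, members for which male replicate 1 lies at least 2-fold outside the other 7 samples, and listed partners past the threshold. Other members named were chosen after their values were seen. The alternatives were DESeq2 (version 1.42.0), robust dispersions, upper-quartile factors or library size alone, a filter of 1 count in total or 10 in each sample, male replicate 1 added, a replicate block, summing entries of a locus, leaving out each sample and, for levels, the longest transcript and 5 CPM. No amino acid sequences were used here. Some genes are not reported here and were left out of the plots of single genes.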

Additional observations from a re-analysis of the deposited data

Results flagged for a closer look

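Of 70 groups of 4 samples of a named member, 10 held a sample whose gap to its nearest neighbour was past the 95% limit of Dixon for its share of the range. Members named only for male replicate 1 were not among these groups. Chance alone would give about 1 in 20, or 3.5, but some of these members were named for values of the same samples, so the counts are not compared. In the females, *Kcnf1* was 70.1 CPM in replicate 1 (4.83 to 14.0 CPM in the others), *Kcnd2* was 136 CPM in replicate 4 (63.7 to 73.8 CPM) and *Kcnmb4* was 22.1 CPM in replicate 4 (10.1 to 11.6 CPM). Female replicate 3 was apart for *Kcnma1*, at 40.6 CPM (63.4 to 65.8 CPM in the others), for *Kcnmb1*, at 1.26 CPM, and for *Kcnmb4os1*, at 0.859 CPM, where the other 3 females had 0 counts in both of the latter. Among the 4 males, replicate 1 was apart for *Kcnt1*, at 29.3 CPM (4.04 to 6.12 CPM in the others), and for *Kcnb2*, at 25.4 CPM (8.08 to 9.48 CPM). Male replicate 2 was apart for *Kcnab1*, at 30.9 CPM (14.97 to 16.4 CPM), and for *Kcnj5*, at 4.53 CPM (0.917 to 1.28 CPM).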

How the results depend on the processing

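Of 35 named genes with a fold change, leaving out those named only for male replicate 1, 28 kept their direction in every alternative. Over DESeq2 and the edgeR alternatives, which give all p-values here, *Kcnk9* was past the threshold in 7 of 16 alternatives (adjusted p 6.68e-06 to 0.255). With DESeq2, 2 members were higher in males and 10 in females, against 11.6% of all genes called; 8 named members passed there and not as reported (*Kcnk2*, *Kcnt1*, *Kcnj4*, *Kcnf1*, *Kcna4*, *Kcnh6*, *Kcnb2*, *Kcnd1*), and *Kcnj14* and *Kcnq5* passed as well. Of these, *Kcnj4*, *Kcnj14* and *Kcnq5* would not have passed the filter on low counts without the females. Over all genes DESeq2 called 1066 higher in males and 1263 in females, and 2 and 3 of the partner list. Library size alone moved the median change over all genes (log2) to -0.24 and called 133 genes higher in males and 673 in females, with 3 members and 2 partners higher in females. Without a filter, 72 and 105 genes were called, no member was higher in males and no partner was called, and *Kcnk9* was 2.11 (adjusted p = 0.0534). With at least 10 counts in every sample 1 partner was higher in males. With all 8 samples 29 and 38 genes and 0 members and 0 partners were called, with *Kcnk9* at 1.999 (adjusted p = 0.0683).

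Replicate numbers did not pair the samples: the correlations of same-numbered samples were -0.019, -0.0082 and -0.00081, and not every sample correlated best with its own number. With a replicate block of male and female replicates 2 to 4, edgeR called 0 genes in either direction (2954 at an unadjusted p below 0.05), 0 members (16) and 0 partners (6), with *Kcnk9* at 2.28 (adjusted p = 0.255). Small log2 fold changes reversed: *Kcnab3* to -0.14 and *Kcne1l* to 0.0043 with the block; *Kcnk1* to -0.034, *Kcnab3* to -0.19, *Kcnma1* to -0.16 and *Kcnj11* to -0.071 with library size alone; *Kcnj11* to -0.0037 with all 8 samples. Leaving out each sample gave 30 to 83 genes higher in males and 53 to 97 in females, 0 to 1 members in each direction and 0 partners. It gave log2 fold changes of 1.92 to 2.38 for *Kcnk9*, -0.076 to 0.48 for *Kcnab1*, -0.27 to 0.29 for *Kcnab3*, -0.089 to 0.74 for *Kcnj11*, -0.083 to 0.19 for *Kcnma1* and -0.012 to 0.99 for *Kcnmb1*. At 5 CPM, 27 members were detected.

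The summed levels (CPM per kb) moved too. With library size alone they were 201 for the K2P genes, 24.8 for the voltage-gated accessory subunits, 10.5 for the calcium- or sodium-activated genes and 368 for all members in males, against 223, 25.1, 13.3 and 387 in females, so that the higher sex turned in all of these but the calcium- or sodium-activated genes. With the longest transcript they were, in males and females, 23.1 and 13.2 for the accessory subunits of the large-conductance channel, 16.6 and 18.4 for the calcium- or sodium-activated genes and 442 and 397 for all members, and 35.6 for the voltage-gated accessory subunits in males. With all 4 males the K2P sum was 203 and that of all members 383. The cause of these shifts was not tested. Members at a few counts are near the limit of depth.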
